A study of Rattus norvegicus with 138 samples.

Results

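The miR-30 family was followed through rat serum, by small RNA sequencing, in animals that carried metal pellets in muscle. The members were 8 named mature products of the family, of which 7 were among the 471 miRNAs analysed here: the 5p arms miR-30a-5p, miR-30c-5p, miR-30d-5p and miR-30e-5p and the 3p arms miR-30a-3p, miR-30d-3p and miR-30e-3p. The family was chosen by measured values: miR-30d-5p was lowest in the control rats at 1 mo and miR-30e-5p was high at 3 mo. The values of metal against control at 1 mo and of 3 mo against the other months therefore chose the members, and they are given as a description with no test. The comparisons of metal with control at 3, 6 and 12 mo, of 12 mo with 6 mo, and of the 2 arms of a precursor are tested.

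The animals were male Sprague-Dawley rats, 3 mo old at surgery, with 2 pellets placed in the gastrocnemius of each hind limb (4 per rat). The pellets were of aluminium (Al), cobalt (Co), copper (Cu), depleted uranium (DU), iron (Fe), lead (Pb), nickel (Ni) or tungsten (W), or of tantalum (Ta), an inert metal that served as the control for surgery. All groups, Ta included, thus carried implants, and no group without surgery is used here. Serum was collected at 1, 3, 6 and 12 mo after implantation, with no Ni group at 12 mo, in 35 groups of 3 or 4 libraries used. The study set out to find serum miRNAs that mark an embedded metal. The series text gives 8 rats a group, and the labels do not say which of them each numbered library came from or whether a rat recurs over months, so p-values measure the spread between libraries.

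A miRNA precursor is a hairpin that is cut into a short duplex, and 1 arm is loaded into Argonaute and finds target mRNAs mainly through its seed, the bases from 2 to 8. The 5p arms of the miR-30 family share 1 seed and so share many predicted targets, while the 3p arms carry others. The family is abundant in kidney, heart, lung and skeletal muscle and is known for roles in podocytes, in autophagy and in restraint of connective tissue growth factor. Circulating copies travel in vesicles and protein complexes and come from many tissues, so a serum level names no source.

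RefSeq mature sequences (rat assembly GRCr8) were at hand for 4 of the 7 members and are shown because the members differ in the arm and in very few bases. Each is written 5′ to 3′ with the seed in capitals.
miR-30a-5p: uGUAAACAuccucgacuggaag
miR-30c-5p: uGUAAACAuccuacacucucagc
miR-30e-5p: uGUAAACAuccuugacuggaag
miR-30a-3p: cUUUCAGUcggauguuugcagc
The 5p arms of miR-30a and miR-30e differ at 1 base, C13U (position counted from 1 at the 5′ end, miR-30a first), so that a read shortened or misread there could be counted for either. miR-30c-5p shares its first 12 bases with both. Of 693 mature rat sequences at hand, 4 carry the seed GUAAACA, the other one being miR-384-5p. Among the same sequences 1 carries the seed UUUCAGU, miR-30a-3p. miR-30d-5p, miR-30d-3p and miR-30e-3p are not among them and are named only. The counts therefore do not show how many miRNAs share either seed. The Mir30e hairpin also holds the bases UUUCAGU on its 3p side.

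The hairpins of miR-30a and miR-30e are shown for the comparison of arms, with the mature arms listed by RefSeq in capitals.
Mir30a: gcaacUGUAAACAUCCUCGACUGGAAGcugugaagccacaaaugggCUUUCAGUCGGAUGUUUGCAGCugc
Mir30e: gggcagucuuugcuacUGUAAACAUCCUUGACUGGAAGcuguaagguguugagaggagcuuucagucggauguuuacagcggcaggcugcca
In GRCr8 the genes lie in pairs. Mir30e and Mir30c1 are 2906 bases apart on chromosome 5 (Mir30e at 139637450 to 139637541), Mir30d and Mir30b are 3715 bases apart on chromosome 7, and Mir30a and Mir30c2 are 19670 bases apart on chromosome 9 (Mir30a at 33233941 to 33234011). miR-30c-5p is made from both Mir30c1 and Mir30c2, so its counts join those loci.

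The family held 1.21% of all counts. miR-30d-5p was the most abundant member, with 661134 counts and rank 30 of the 471 miRNAs, followed by miR-30c-5p (401873 counts, rank 38), miR-30a-5p (339414, rank 42) and miR-30e-5p (207533, rank 49). The 3p arms were less abundant: miR-30a-3p had 98078 counts, miR-30e-3p had 59312, and miR-30d-3p had 204 counts in 29 libraries. Their ratios to the 5p arms therefore differed by precursor, and miR-30d came almost wholly as its 5p arm. Outside the members, miR-30c-1-3p (260 counts) and miR-30c-2-3p (1539 counts) were near the limit of detection.

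Values are given as CPM, counts scaled to a common library size with TMM factors, in 132 libraries with 20000 or more counts. Their totals ran from 70454 to 6406599 counts (median 733618.5), and those of 3 mo were the shallowest, at a median of 343012.5 counts with 109 miRNAs seen. The 6 libraries left out held 518 to 12213 counts, and the members together took between 0.669% and 40.2% of them, so the family's share is unsteady in such libraries. They are Co replicate 1 at 1 mo, Ta, Ni and Al replicate 3 and DU replicate 4 at 3 mo, and W replicate 3 at 12 mo. Results that change with them are given with and without them.

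At 1 mo miR-30d-5p, which has been described as a circulating marker in heart disease in humans, was lowest in Ta. The 4 Ta libraries held 1879, 940.4, 1496 and 2070 CPM, and the 31 metal libraries ran from 2323 to 7418 CPM with a median of 4251. All 31 metal libraries thus lay above the highest Ta library, and the groups did not overlap for any of the 8 metals. By mean ± SD the order from high to low was Pb (5428 ± 322 CPM), W (4837 ± 503), Fe (4648 ± 1973), Al (4289 ± 390), DU (3949 ± 328), Cu (3657 ± 1091), Ni (3620 ± 661), Co (3324 ± 682, n = 3) and Ta (1596 ± 498; n = 4 in the others). Only the steps between Ta and Co and between W and Pb were larger than the SD of both neighbours, so the order among the other metals is not resolved. The fitted log2 difference of the mean of the 8 metals from Ta was 1.30, against a median of 0.09 over all 289 miRNAs tested, and it was 1.08 with RLE scaling and 0.98 in DESeq2. Ta libraries were also the shallowest at this month, with totals of 316852 to 539673 counts against 463512 to 3743726 in the metal libraries used, and the part of depth in the difference was not tested.

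**Figure D1:**
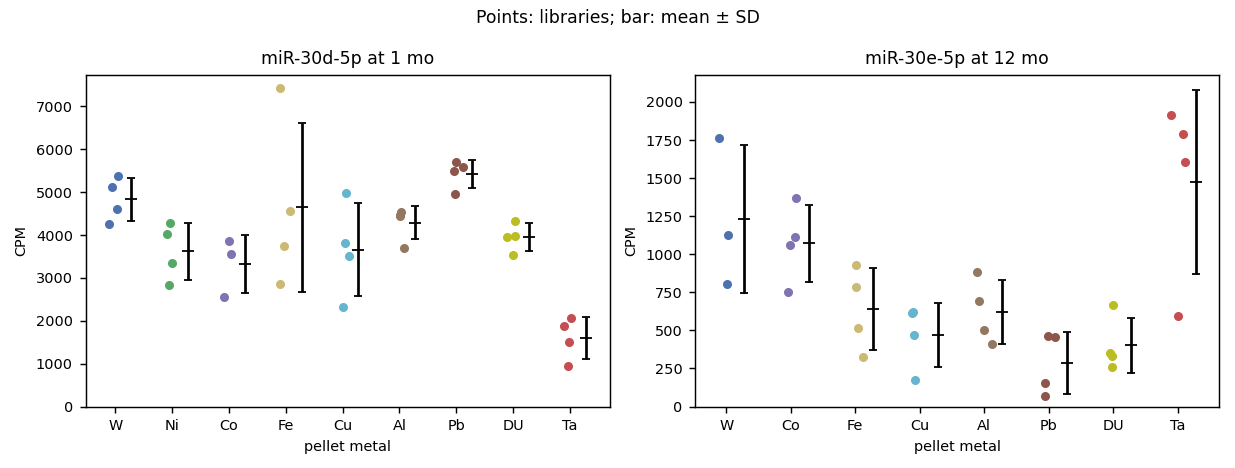
CPM of miR-30d-5p at 1 mo (left) and of miR-30e-5p at 12 mo (right) by pellet metal, with 1 point per library and the mean ± SD beside the points. At 1 mo the 4 Ta libraries (940.4 to 2070 CPM) lie below every metal library, and at 12 mo the Pb libraries (68.04 to 460 CPM) lie below every Ta library.

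The other members leaned the same way at 1 mo, less far. miR-30a-5p, which represses the autophagy gene beclin 1 in human cells, ran from 1152 to 6271 CPM in metals (median 2231) and from 610.3 to 1709 in Ta. miR-30c-5p, reported to lower lipoprotein output in mice, ran from 468.3 to 3481 CPM in metals (median 1906) and from 317.6 to 1111 in Ta. miR-30e-5p ran from 439.8 to 2136 CPM in metals (median 822.7) and from 176 to 686.6 in Ta. These ranges overlap. The fitted log2 difference of the mean of the metals was 1.15, 1.03 and 0.94 for these 5p arms. For the 3p arms it was 0.29 (miR-30a-3p) and 0.45 (miR-30e-3p), and that of miR-30a-3p was -0.05 in DESeq2. The median over the 6 members with enough counts was 0.99. Every metal library lay above every Ta library in 18 of 48 pairs of member and metal, 8 of them from miR-30d-5p, while 3.11% of pairs did so over all miRNAs. Since this contrast chose the family, nothing is read from that count. miR-30d-3p went the other way in sparse counts, with 21 counts in 4 of 31 metal libraries and 13 counts in 3 of 4 Ta libraries.

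The summed level of the family at 1 mo was 5643 to 19040 CPM in metals (median 10490) and 4090 to 5131 CPM in Ta. Its make-up was closer: miR-30d-5p made up a median of 45% of the 5p counts in metals and 41.8% in Ta, and miR-30e-5p a median of 9.09% in metals and 8.94% in Ta. In bulk serum, release of fewer copies and release from fewer cells cannot be told apart. Summed levels of the red-cell list (4 of 5 markers in the table, miR-486-5p not analysed here) had medians of 3844 CPM in metals and 3687 in Ta, of the platelet list 3280 in metals and 3220 in Ta, and of the leukocyte list (all 5 in the table) 9186 in metals and 6165 in Ta; their part in the difference was not tested.

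Over the months the 5p arms moved unevenly. miR-30e-5p had medians of 785.8, 5244, 927.5 and 621.6 CPM at 1, 3, 6 and 12 mo over all libraries, with ranges of 176 to 2136, 366.5 to 30190, 263.4 to 6559 and 68.04 to 1917 CPM. The 3 mo libraries were high in most groups and also the most spread. miR-30d-5p had medians of 3988, 6827, 5025 and 3392 CPM, miR-30c-5p of 1806, 4535, 2085 and 1215 CPM, and miR-30a-5p of 2152, 3010, 2449 and 2074 CPM. All 4 medians of the 5p arms were highest at 3 mo.

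The fitted log2 difference of 3 mo from 1 mo, over the 8 metals sampled at all months with Ta among them, was 2.78 for miR-30e-5p, 1.60 for miR-30c-5p, 1.03 for miR-30d-5p and 0.63 for miR-30a-5p. For the 3p arms it was 0.16 (miR-30a-3p) and -0.94 (miR-30e-3p). The median over all 326 miRNAs was -1.69, and 9.82% of them were higher by a log2 of 1 or more, a size that 3 of the 6 members reached. These are descriptions, since the 3 mo level of miR-30e-5p was used to choose the family. In Ta alone the fitted difference of miR-30e-5p was 3.93: its Ta libraries held 9762, 5870 and 2976 CPM at 3 mo and 176 to 686.6 CPM at 1 mo. At 6 mo against 3 mo miR-30e-5p differed by a log2 of -2.34.

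**Figure D2:**
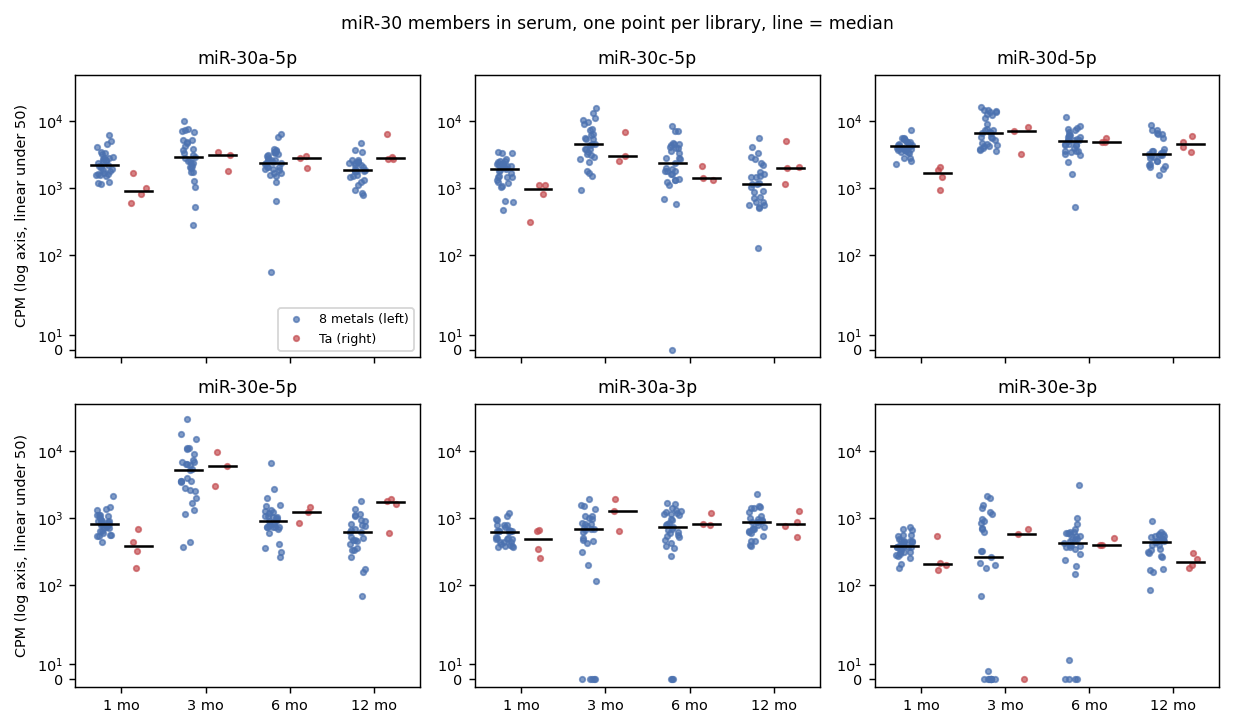
CPM of 6 miR-30 members by month, with the metal libraries left of the Ta libraries in each month, 1 point per library and a line at the median; the axis is logarithmic above 50 CPM and linear below, and Ni is absent at 12 mo. miR-30e-5p is high at 3 mo in both metals (median 5184 CPM) and Ta (median 5870), and libraries at 0 appear for the 3p arms at 3 and 6 mo.

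The mix of 5p arms changed with the level. miR-30e-5p made up a median of 9.09%, 24.4%, 8.61% and 8.07% of the 4 arms' counts at 1, 3, 6 and 12 mo, and miR-30a-5p 25.6%, 15.2%, 22.7% and 26.2%. miR-30d-5p was the largest of the 4 in 33 of 35, 17 of 32, 26 of 34 and 28 of 31 libraries, and miR-30e-5p in 0, 10, 1 and 0. These shares need no scaling between libraries. The 3 mo libraries were also the shallowest, and their red-cell sums had medians of 4315 CPM in metals and 8849 in Ta, against 3844 in metals and 3687 in Ta at 1 mo. The part of either in the shift was not tested.

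**Figure D3:**
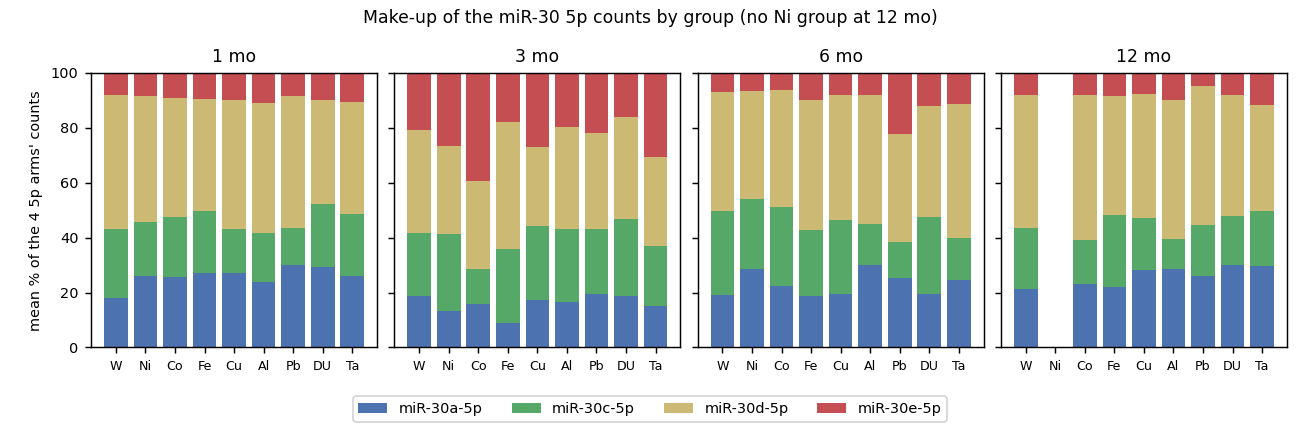
Mean share (%) of each 5p arm in the counts of the 4 arms, by pellet metal with Ta last, in a panel per month (12 mo has no Ni group). The miR-30e-5p share is largest at 3 mo, where its median over libraries was 24.4%.

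At 3 and 6 mo no member differed from Ta past the threshold in any metal. edgeR called 0 of 48 tests of member and metal at 3 mo (adjusted p under 0.05, Benjamini-Hochberg over all miRNAs of a metal; 0% called over all miRNAs), with 1 test at an unadjusted p under 0.05 and 1 call by DESeq2. It called 0 of 48 at 6 mo (0.368% over all miRNAs), with 0 at an unadjusted p under 0.05 and 0 by DESeq2. The DESeq2 call at 3 mo was miR-30e-3p in Co, where the 4 Co libraries held no count and Ta held 0, 235 and 2427 counts, so no fold is given. All metals of a month share the same 3 or 4 Ta libraries, and the tests are not independent.

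For miR-30d-5p no difference between metals and Ta was resolved at 3 and 6 mo. It ran from 3602 to 16390 CPM in metals (median 6688) and held 3268, 7169 and 8366 CPM in Ta at 3 mo, and ran from 529.2 to 11620 CPM in metals (median 5113) and from 4859 to 5654 in Ta at 6 mo. The ranges overlap at both months. The mean of the metals differed from Ta by a log2 of 0.29 ± 0.50 at 3 mo (SE; adjusted p = 1.00, edgeR) and -0.01 ± 0.58 at 6 mo (adjusted p = 1.00), where the sign turns with RLE scaling (0.04) and in DESeq2 (0.30). Fe at 3 mo was the only group at these months in which every library of this miRNA (11210 to 14900 CPM) lay above every Ta library. The share of such pairs over all miRNAs was not computed at 3 and 6 mo, so nothing is read from it. Over all members the fitted means of the metals ran from -1.09 to 0.29 at 3 mo and from -0.26 to 0.74 at 6 mo.

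**Figure D4:**
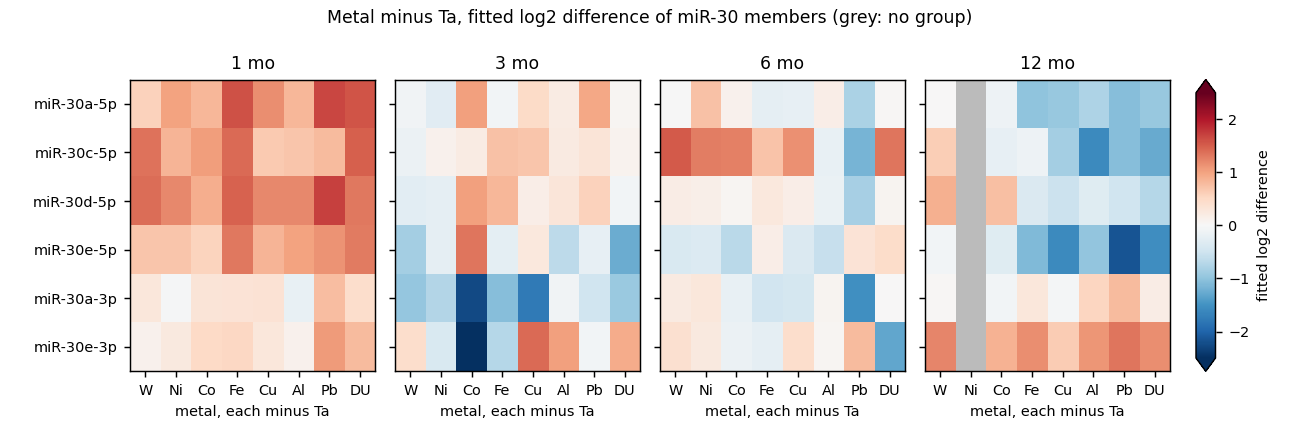
Fitted log2 difference of each metal minus Ta (colour, red higher and blue lower in the metal) for 6 members, in a panel per month; grey marks the missing Ni group, and values beyond the scale take its end colour. The 1 mo panel, which chose the family, is mostly red, and at 12 mo the 5p arms of Fe, Cu, Al, Pb and DU are blue while miR-30e-3p is red in all 7 metals.

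At 12 mo most fitted differences of the 5p arms from Ta were negative and those of miR-30e-3p positive, and none was called. edgeR called 0 of 42 tests (1.12% over all miRNAs were called), and 8 had an unadjusted p under 0.05. DESeq2 called 11, all of them 5p arms lower in Al, Cu, DU, Fe or Pb. The share over all miRNAs was computed neither for DESeq2 calls nor for an unadjusted p under 0.05. Nothing is therefore read about the family from either count. The nearest to a call in edgeR was miR-30e-5p in Pb, an arm that in human cells represses the SUMO-conjugating enzyme UBC9. It held 458.4, 460, 68.04 and 153.9 CPM in Pb and 1917, 1789, 1607 and 591.6 CPM in Ta. Every Pb library lay below every Ta library. The log2 difference was -2.16 ± 0.59 (SE; adjusted p = 0.0520, edgeR), -2.49 with RLE scaling (adjusted p = 0.0305) and -2.52 in DESeq2 (adjusted p = 0.000131). The other edgeR settings gave no call, with adjusted p from 0.0539 (miR-451-5p as a covariate) to 0.157 (log2 -2.26, near-empty libraries included). Leaving out each of the 31 libraries of the month gave -2.78 to -1.85 (adjusted p 0.0138 to 0.16, past the threshold in 10 of 31). Of these 10, only those without Ta replicate 1 or 4 left out a library of Pb or Ta. The result thus sits at the threshold and moves with the choice of scaling and of libraries.

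miR-30e-5p in the other metals at 12 mo had means of 1232 ± 487 CPM in W (n = 3), 1073 ± 253 in Co, 639 ± 269 in Fe, 623 ± 210 in Al, 471 ± 211 in Cu and 402 ± 181 in DU (n = 4 each), and 1476 ± 603 in Ta. Only the step between Fe and Co exceeded the SD of both neighbours. The fitted log2 differences were -0.06 in W, -0.31 in Co, -1.10 in Fe, -0.99 in Al, -1.59 in Cu (adjusted p = 0.217) and -1.56 in DU (adjusted p = 0.160). For the mean of the 7 metals it was -1.11 ± 0.39 (adjusted p = 0.119, edgeR) and -1.40 in DESeq2 (adjusted p = 0.00962). In edgeR it was -1.32 with RLE scaling (adjusted p = 0.0516) and -0.86 with the near-empty libraries included (adjusted p = 0.537). No filter, a replicate block or miR-451-5p as a covariate gave no call either (adjusted p 0.0912 to 0.270, edgeR). Without Ta replicate 4, the lowest Ta library, the edgeR value was -1.39 (adjusted p = 0.0498, against 0.0498 to 0.26 over the libraries left out in turn). The median over all 242 miRNAs was 0.24 with TMM and -0.04 with RLE, a shift of -0.28 that touches every value of this contrast.

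miR-30a-5p held 806.1 to 4822 CPM in the 27 metal libraries (median 1874) and 6510, 2976, 2775 and 2752 CPM in Ta at 12 mo. In Fe, Cu, Al, Pb and DU every library lay below every Ta library. The mean of the metals differed by -0.69 ± 0.33 (adjusted p = 0.239 in edgeR, 0.0185 in DESeq2). miR-30c-5p had means of 720 ± 576 CPM in Al and 2583 ± 1734 in Ta (log2 -1.59, adjusted p = 0.212, edgeR), with overlapping libraries. Over the 6 members, every metal library lay below every Ta library in 8 of 42 pairs and above in 3, while 2.42% and 4.43% of pairs did so over all miRNAs.

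miR-30d-5p had 2 metals above the Ta mean and 5 below it at 12 mo. By mean ± SD the order was W (7113 ± 481 CPM, n = 3), Co (6890 ± 1295), Ta (4631 ± 1069), Al (3142 ± 670), Fe (3137 ± 577), Cu (2939 ± 639), Pb (2808 ± 617) and DU (2197 ± 453; n = 4 each). The steps from Co to Ta and from Ta to Al exceeded the SD of both neighbours. Every W library (6560, 7347 and 7432 CPM) lay above every Ta library, and every Pb and DU library below. The log2 difference from Ta was 0.90 ± 0.40 in W (adjusted p = 0.333, edgeR) and -0.71 ± 0.38 in DU (adjusted p = 0.264 in edgeR, 0.00226 in DESeq2). With the near-empty W library included it was 3.09 in W (adjusted p = 0.0176), a call that rests on this library of 3789 counts. The mean of the metals differed by -0.11 ± 0.28 (adjusted p = 0.998), so no common direction was seen. Depth differed along the same line: totals were 1269637 to 1490019 counts in W and 408203 to 2225353 in Co, 351094 to 1168200 in Ta, 159861 to 1078901 in DU, and between 214246 and 740656 in Al, Fe, Cu and Pb. The part of depth was not tested.

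miR-30e-3p, the other arm of the miR-30e hairpin, had fitted log2 differences from Ta of 0.64 (Cu) to 1.34 (Pb) in the 7 metals at 12 mo, none of them called. It ran from 83.15 to 896.7 CPM in metals (median 438) and held 299.3, 241.4, 196.9 and 176.7 CPM in Ta. The mean of the metals differed by 1.07 ± 0.52 (adjusted p = 0.239, edgeR), and only W and Fe had every library above Ta. miR-30a-3p differed by 0.24 ± 0.41 (adjusted p = 0.909, edgeR), a sign that turned with RLE scaling (-0.05) while that of miR-30e-3p did not (0.79), and miR-30d-3p had 97 counts in 12 of 27 metal libraries and none in the 4 Ta libraries. For the means of the metals over 3, 6 and 12 mo, edgeR called 0 of 18 member tests (0.556%, 2.57% and 4.55% of all miRNAs were called at 3, 6 and 12 mo), and 3 had an unadjusted p under 0.05. DESeq2 called 2. The share over all miRNAs was not computed for DESeq2 calls or for an unadjusted p under 0.05. Of the marker lists, 2 of 5 muscle miRNAs, miR-1-3p (log2 -3.43) and miR-133a-3p (log2 -4.51), were also lower in the mean of the metals at 12 mo (adjusted p = 0.0265 and 0.0288, edgeR). The summed muscle list ran from 53.8 to 23110 CPM in metals (median 771.3) and from 713.2 to 22900 in Ta (median 2887), and its part in the 5p values was not tested. The difference of metals from Ta at 12 mo minus that at 6 mo, a comparison chosen after the values were seen, gave 0 calls of 7 members in edgeR (0.92% over all miRNAs), 0 at an unadjusted p under 0.05 and 0 in DESeq2.

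Averaged over 3, 6 and 12 mo (Ni over 3 and 6 mo only), edgeR called 1 of 56 tests (0.652% over all miRNAs). It was miR-30e-3p, lower in Co, where 1.53% of all miRNAs were called lower. The call rests on zeros. At 3 mo the 4 Co libraries held no count of miR-30e-3p, while 2 of 3 Ta libraries held 580.8 and 677 CPM. At 6 mo the means were 359 ± 117 CPM in Co (n = 4) and 426 ± 63.2 in Ta (n = 3), and at 12 mo 372 ± 143 CPM in Co and 229 ± 54.4 in Ta (n = 4 each). The fitted log2 difference was -0.16 ± 1.64 at 6 mo (adjusted p = 1.00, edgeR; 0.05 in DESeq2) and 0.87 ± 0.63 at 12 mo (adjusted p = 0.649, edgeR), so no difference was resolved at either later month. The adjusted p was 0.0322 in edgeR and 0.0507 with RLE scaling, and it lay between 0.0171 and 0.0658 when 1 library was left out, missing the threshold in 6 of 22 cases. These were without Co replicate 1 or 4 at 3 mo, Co replicate 1 or 2 at 12 mo, Ta replicate 2 at 6 mo or Co replicate 3 at 6 mo. The same Co libraries had 5305 to 30190 CPM of miR-30e-5p, the other arm. Across members, 3 of the 56 tests had an unadjusted p under 0.05, and DESeq2 called 1, with no share over all miRNAs computed for either count.

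Between the later months, 12 mo against 6 mo, the fitted differences of the 5p arms were negative, again without a call. miR-30e-5p differed by a log2 of -0.71 ± 0.25 (adjusted p = 0.0610, edgeR), miR-30c-5p by -0.61 ± 0.27 (adjusted p = 0.179), miR-30d-5p by -0.40 ± 0.17 (adjusted p = 0.170) and miR-30a-5p by -0.11 ± 0.23 (adjusted p = 1.00). miR-30a-3p differed by 0.31 and miR-30e-3p by -0.18. edgeR called 0 of 7 members (7.67% over all miRNAs), and 3 had an unadjusted p under 0.05. DESeq2 called 3 (miR-30c-5p, miR-30d-5p and miR-30e-5p, all lower). The share over all miRNAs was computed for neither of these counts. The median log2 of all miRNAs was 0.40. In Ta alone, with 4 and 3 libraries, the signs of miR-30e-5p (0.33) and miR-30c-5p (0.67) turned. With the near-empty libraries included that of miR-30d-5p turned (0.07). Among the marker lists miR-451-5p, a red-cell miRNA, was lower at 12 mo (log2 -1.19, adjusted p = 0.00996), while liver miR-122-5p (1.05, adjusted p = 0.0151) and leukocyte miR-155-5p (3.90, adjusted p = 0.00151) were higher. These were 1 of 4 red-cell, 1 of 2 liver and 1 of 5 leukocyte markers tested, with list medians of -0.28, 1.83 and 0.06 on the log2 scale, and their part in the values of the family was not tested. Of 12 kidney and epithelial miRNAs listed beside miR-30, all in the table, 1 was called here, miR-429 (higher, log2 5.00), and none in the comparisons with Ta.

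The ratio of the 5p to the 3p arm of a precursor is taken within a library, so no scaling factor enters it. It is not free of depth where the 3p arm has no count. There only the constant added to each arm stands for the 3p arm, and the ratio rises with the 5p count. For miR-30d this held in 19 of 31 libraries at 12 mo and 28 of 34 at 6 mo. At 12 mo against 6 mo all libraries of a month were pooled over metals, so Ni enters at 6 mo only, unlike in the fits above. The mean log2 ratio was 1.31 ± 1.01 and 2.37 ± 2.36 for miR-30a (SD, n = 31 and 34), a difference of -1.06 (adjusted p = 0.0144 over the 3 precursors, two-sided permutation test). For miR-30e it was 0.78 ± 1.42 at 12 mo and 2.29 ± 3.54 at 6 mo, a difference of -1.51 (adjusted p = 0.0242). Both rest on libraries with no 3p count: none at 12 mo, and 3 of 34 for miR-30a and 4 of 34 for miR-30e at 6 mo. In an alternative chosen after the values were seen, restricted to libraries with a 3p count, the differences were -0.40 (adjusted p = 0.0983) for miR-30a and -0.33 (adjusted p = 0.347) for miR-30e. Both calls were also lost with the near-empty libraries included, at -0.79 (adjusted p = 0.142) for miR-30a and -1.26 (adjusted p = 0.12) for miR-30e. For miR-30d the ratio was 10.7 ± 2.65 at 12 mo and 12.9 ± 1.44 at 6 mo (difference -2.24, adjusted p = 0.0003). Its 3p arm had counts in only 12 of 31 libraries at 12 mo and 6 of 34 at 6 mo. Among those libraries the ratio was 8.10 ± 1.12 at 12 mo and 11.6 ± 1.42 at 6 mo (n = 12 and 6, difference -3.53, adjusted p = 0.000645). They were kept by their 3p count, which was 2 to 5 at 6 mo and 2 to 58 at 12 mo. At a 3p count of 2 to 5 the ratio is set mostly by the 5p count. Library totals had a median of 567706 counts at 12 mo and 1302182 at 6 mo. No shift of the arms is read from this p-value, and the part of depth in the difference was not tested. At 3 mo, 10 of 32 libraries had no count of miR-30e-3p and 5 of 32 none of miR-30a-3p, and none lacked either at 1 mo.

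The ratio of the miR-30e arms was also compared between metals and Ta at 12 mo. This comparison was chosen after the values were seen and uses the same arms and the same 4 Ta libraries as the values above, so it is not independent of them. The mean log2 ratio was 0.51 ± 1.31 in metals (SD, n = 27, median 0.68, range -3.02 to 3.37) and 2.58 ± 0.58 in Ta (n = 4, median 2.78, range 1.74 to 3.02). Of the 27 metal libraries, 22 lay below the lowest Ta library. The difference was -2.07 (exact permutation test, two-sided, p = 0.00248, adjusted p = 0.0149 over 6 such tests). The test pools libraries of different metals as 1 group, and the metals differed among themselves. Its p-value therefore does not measure the spread between replicates of 1 metal. By metal the means were 1.61 ± 0.48 in Co, 1.41 ± 0.58 in W (n = 3), 0.88 ± 1.78 in Al, 0.48 ± 1.06 in Fe, 0.47 ± 0.56 in Cu, 0.07 ± 1.38 in DU and -1.09 ± 1.32 in Pb (n = 4 each), where the 3p arm exceeded the 5p arm. The call was lost without Ta replicate 1, 2 or 3 (adjusted p 0.0648 to 0.0888) and with the near-empty libraries included (difference -1.77, adjusted p = 0.51), since the near-empty W library held 251 counts of miR-30e-5p and 0 of miR-30e-3p. The same difference was 0.95 at 6 mo (adjusted p = 0.943) and -0.41 at 3 mo (adjusted p = 0.924), and for miR-30a at 12 mo it was -0.89 (adjusted p = 0.288). At 1 mo, where no test is given, the ratio of miR-30e had means of 1.11 ± 0.60 in metals (n = 31) and 0.54 ± 1.25 in Ta (n = 4).

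**Figure D5:**
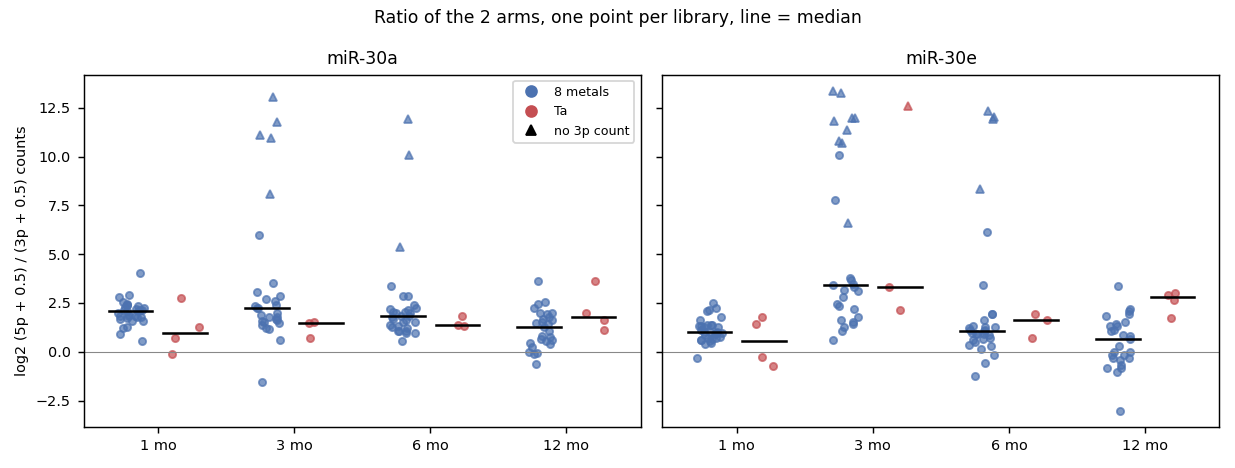
Log2 ratio of 5p to 3p counts, with 0.5 added to each, for miR-30a and miR-30e by month, metals left of Ta, 1 point per library and a line at the median; triangles are libraries with no 3p count. At 12 mo the miR-30e ratio of Ta (1.74 to 3.02) lies above 22 of 27 metal libraries, and the highest points at 3 and 6 mo are libraries without a 3p count.

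Across the 35 groups of metal and month miR-30d-5p and miR-30e-5p were correlated positively with the other 5p arms and negatively with the 3p arms. By Pearson correlation of group mean log2 CPM, miR-30d-5p was most like miR-30c-5p (0.82), miR-30e-5p (0.75) and miR-30a-5p (0.74) in the family, and its correlations with miR-30a-3p and miR-30e-3p were -0.20 and -0.41. Outside the family the nearest to miR-30d-5p of 325 others were let-7b-5p (0.80), let-7a-5p (0.78) and miR-223-3p (0.73). The nearest to miR-30e-5p were miR-223-3p (0.85), let-7a-5p (0.79) and miR-21-5p (0.72), while in the family miR-30c-5p stood at 0.68, miR-30a-5p at 0.51, miR-30a-3p at -0.44 and miR-30e-3p at -0.59. No correlation was taken between the 3p arms. Each library belongs to 1 group, but the groups of a month share that month and depth differed between groups, with median totals from 163647.5 counts (Co at 3 mo) to 2863802 (Cu at 6 mo). The 35 groups also include those whose values chose the family, Ta at 1 mo and the groups of 3 mo. At 3 mo, 10 of 32 libraries had no count of miR-30e-3p, which enters its correlations. These values describe the groups only, and nothing is read from them about the family.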

How the data were processed

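The deposited table holds raw counts, made by the authors, of 471 rat miRNAs in 138 libraries of serum RNA, and each column was matched to a sample by name. Per the submitters' processing notes the build was Rnor_6.0; which aligner and counting tool made them is not given in the sources used here. The members and lists were chosen with earlier results of these data known. The 132 libraries with 20000 or more counts were used, in R 4.3.3. edgeR 4.0.16 fitted quasi-likelihood models with TMM scaling after filterByExpr (minimum count 10, minimum total 15), with 1 mean per metal and month, on the libraries of 1 month for metal against Ta and on all months otherwise. Calls are at an adjusted p under 0.05, Benjamini-Hochberg over all miRNAs of a comparison. The SE of a fitted log2 difference was derived from its test statistic (F) in the whole fit. It is not the spread of the libraries compared alone. DESeq2 1.42.0 (poscounts) was an alternative, and correlations used a prior count of 2. Shares called over all miRNAs are those of edgeR at the adjusted p and were not computed for DESeq2 or for unadjusted p-values. The code was tested on simulated counts. Ratios of arms used libraries with 20 or more counts over both arms and 0.5 added, with scipy 1.17.1 (100000 permutations between months, exact enumeration against Ta). miR-30d-3p passed the filter at 1 mo and in the fit of all months but is too sparse for a direction.

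Alternatives were RLE scaling, no filter, DESeq2, a replicate block, the near-empty libraries included, miR-451-5p as a covariate, only the groups compared, adjustment over all metals of a month, Ta alone, other arm settings, and each library left out. All members are named, and other miRNAs by the 3 highest correlations and by list. No pair of libraries had identical counts. Counts limit the precision, and the spread between libraries comes on top.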

Additional observations from a re-analysis of the deposited data

Results flagged for a closer look

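In 15 of 162 groups of 4 libraries and members, 1 library stood apart from the other 3 by Dixon's test (gap over range above 0.829); chance flags about 1 in 20 groups. At 12 mo the Ta group had such a library for miR-30a-5p (replicate 1, 6510 CPM, others 2752 to 2976) and for miR-30e-5p (replicate 4, 591.6 CPM, others 1607 to 1917), which both enter the comparisons with metals. Co had one for miR-30a-5p at 3 mo (replicate 4, 286.2 CPM, others 5234 to 7716) and at 12 mo (replicate 4, 4822 CPM, others 2397 to 2684), for miR-30c-5p at 6 mo (replicate 1, 1321 CPM, others 3960 to 4393) and for miR-30a-3p at 3 mo (replicate 3, 1063 CPM, the others at 0) and 6 mo (replicate 2, 1383 CPM, others 525.3 to 610.4). At 1 mo Al replicate 3 was high for miR-30c-5p (2130 CPM, others 1462 to 1465) and Al replicate 2 low for miR-30d-5p (3706 CPM, others 4448 to 4526). For miR-30a-3p, Cu replicate 3 at 1 mo (963.2 CPM) and Cu replicate 1 at 12 mo (1401 CPM) were high, and Pb replicate 3 at 3 mo and Fe replicate 3 at 6 mo were at 0 in libraries of 70454 and 529493 counts. For miR-30e-3p at 12 mo, Pb replicate 4 (273.4 CPM, others 521.8 to 577.8) and DU replicate 3 (155.5 CPM, others 438 to 537.4) were low.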

How the results depend on the processing

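Counts of members called moved as follows, and the cause was not tested. DESeq2 called 1 at 3 mo, 11 at 12 mo, 2 for the means of the metals and 3 for 12 mo against 6 mo, where edgeR called 0. No share of DESeq2 calls over all miRNAs stands beside these counts. RLE scaling called 1 at 12 mo and 0 in the average over months (1 with TMM), and including the near-empty libraries gave 1 call at 12 mo. Leaving out 1 library at a time gave 0 to 1 calls at 3 mo, 0 at 6 mo, 0 to 2 at 12 mo, 0 to 1 for the means, 0 to 2 in the average and 0 to 1 for 12 mo against 6 mo. The other settings left these counts within 1.5 times. miR-30e-5p at 3 mo against 1 mo was 3.93 in Ta alone, and miR-30d-5p at 1 mo stayed between 1.15 and 1.43 with 1 library left out. The mean of the metals for miR-30d-5p, near 0 at later months, turned sign at 6 mo with RLE (0.0433), DESeq2 (0.305) and the replicate block (0.0348) and without 1 library in 10 of 34 cases (range -0.19 to 0.33), at 3 mo without Ta replicate 4 (range -0.0330 to 0.537), and at 12 mo with near-empty libraries included (0.0223). For 12 mo against 6 mo, miR-30e-5p (0.33) and miR-30c-5p (0.67) turned in Ta alone and miR-30d-5p (0.0653) with near-empty libraries included. Of the 3 arm ratios at 12 mo against 6 mo, 3 were called in every case with 1 library left out and 1 with near-empty libraries included. Among libraries with a 3p count 1 was called, miR-30d, whose 3p counts were few. The miR-30e ratio of metals minus Ta at 12 mo was -1.77 with near-empty libraries included and -2.35 to -1.92 with 1 library left out.

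Deviations of same-numbered libraries had a median correlation of -0.01 between 12 and 6 mo (over 0.1 in 4 of 29 pairs). Between metals and Ta it was 0.06, -0.04 and 0.04 at 3, 6 and 12 mo. At 3 mo 7 of 23 same-numbered pairs were over 0.1, against 11 of 64 other pairs. At 6 mo it was 2 of 24 against 14 of 69, and at 12 mo 4 of 27 against 11 of 81. Such values cannot show whether a shared number marks a shared rat. With the replicate block the counts of calls stayed at 0 at 3, 6 and 12 mo and 1 in the average. Libraries without a 3p count limit the arm ratios, and 3 or 4 Ta libraries a month limit every comparison with Ta.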
